A study of Mus musculus with 10 samples.

Results

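The core pluripotency transcription factors are the DNA-binding proteins that hold embryonic stem (ES) cells in an undifferentiated state. The 10 genes described here, of 19025 measured, were Pou5f1, Nanog, Sox2, Klf4, Klf5, Esrrb, Zfp42, Tfcp2l1, Tbx3 and Nr0b1. They were chosen by name as a known set, and all 10 were found in each deposited file. Each gene was given the highest of its rows, in FPKM, that is, sequenced fragments scaled to transcript length and library total, so that levels can be compared between genes.

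Expression was measured by RNA-seq in 10 libraries of mouse cells of the C57BL/6 strain, 2 in each of 5 groups from a study of Polycomb and Trithorax complexes. The ES cells were of the line B6N-22, so that both libraries stand for 1 line, and were grown with 1000 units/ml of leukaemia inhibitory factor (LIF) and 20% fetal bovine serum on embryonic fibroblasts whose division had been stopped with mitomycin C. B cells carrying B220 and CD4 T cells were taken from spleens of mice aged 6 to 8 weeks and isolated with magnetic beads to a stated purity above 98%. T helper 2 (Th2) cells were splenic CD4 T cells kept for 5 days with 15 ng/ml of IL-2 and 10 ng/ml of IL-4. The last group was cultured in the same way with 10 nM trichostatin A (TSA), an inhibitor of histone deacetylases, added on day 2 and left for 3 days. No group carried a genetic change in the labels.

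The ES factors form a network in which each member binds regulatory DNA of others and of itself. Oct4, the product of Pou5f1, pairs with Sox2 on a joined DNA element, and Nanog acts with them. Klf4, Klf5, Esrrb, Tfcp2l1, Tbx3 and Nr0b1 strengthen this core, several of them downstream of LIF and Stat3 or of Wnt signalling, and Zfp42, also known as Rex1, is a widely used marker of the naive state. In mature lymphocytes the core genes are known to be silent, whereas Klf4 is also used by blood cells. Histone deacetylase inhibitors are known to loosen repression at many silent genes, which is the question behind the search for traces of these genes in TSA-treated cultures.

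Within the ES, B cell and CD4 T cell pairs the libraries were near-identical, with an SD of the log2 ratio of 0.042 to 0.046 over genes at 10 FPKM or more, against 0.31 and 0.32 for untreated and treated Th2 cultures. Such a near-identical pair was averaged and entered as a single sample, which leaves n = 2 for the Th2 cultures alone. Labels matched their markers for Cd3e and Il4. Cd3e was at 244 FPKM in the CD4 T libraries against 2.02 in those of B cells. Il4 was at 85.7 ± 14.5 (SD, n = 2) in untreated Th2 cultures against 5.02 in CD4 T cells. B cell markers were also present in the CD4 T libraries. The 5 fixed ones summed to 221.9 and 225.8 FPKM there, against 3931.7 and 3929.8 in B cells. The 5 fixed T cell markers summed to 23.7 and 22.95 in B cells, against 1621.1 and 1627.6 in CD4 T cells. The part of B cells in the CD4 T values below was not tested. Fibroblast markers were present in the ES libraries, where all 15 stood at 1 FPKM or more and summed to 1145 and 1148 FPKM, against 6.10 to 9.13 in the 8 lymphocyte libraries. The part of feeder RNA in the ES values below was not tested.

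Short stretches of 3 promoters are shown because they carry, close to the start of genes of the set, the DNA words that Oct4 and Sox2 are known to bind. The sequences are from RefSeq (build GRCm38.p6, the assembly known as mm10), in the direction of the gene, with the matched word in capitals and 30 bases on each side. The first is chr6:122707385-122707457 on the plus strand, upstream of both listed Nanog starts, the second chr8:43307158-43307224 on the minus strand, upstream of Zfp42, and the third chr3:34649866-34649932 on the plus strand, upstream of Sox2.
Nanog: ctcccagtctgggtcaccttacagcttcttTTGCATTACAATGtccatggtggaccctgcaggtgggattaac
Zfp42: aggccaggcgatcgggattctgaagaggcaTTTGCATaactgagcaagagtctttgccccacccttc
Sox2: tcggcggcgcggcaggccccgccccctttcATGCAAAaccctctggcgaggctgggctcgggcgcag

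The capitals in Nanog are the joined Sox-Oct element, searched as CATTGTNATGCAA on both strands, and those in Zfp42 and Sox2 are the octamer core, searched as ATGCAAA. RefSeq promoters were found for 8 of the 10 genes, with 11 starts, and the 250 bases before each start were searched. The octamer core was present at 4 of the 11 starts and at 4.12% of all 32851 listed starts. These belonged to 3 of the 8 genes, Nanog, Sox2 and Zfp42, and in Nanog the same bases were counted from both starts. The joined element, which overlaps both the octamer core and the Sox core CATTGT, was present at both starts of Nanog, which share these bases, and at 4 of all 32851 starts, or 0.0122%. The Sox core was found in Nanog and at the downstream start of Pou5f1 (10.7% of all starts). A Klf-type word, GGGNGTGG, was found in Nanog, Pou5f1, Tfcp2l1 and Zfp42 (15.9%), and a Stat-type word, TTCNNNGAA, in Esrrb (7.02%). The Esrrb-type word TCAAGGTCA was in none of these windows (0.387%). A match of letters describes the sequence and shows no binding.

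In ES cells all 10 genes were expressed, from 17.9 to 620.1 FPKM, a span of 34.7-fold. Pou5f1 (chr17:35506032-35510777) stood at 620.31 and 619.91 FPKM in the 2 ES libraries. This placed it as the 51st highest of all genes, above 99.6% of those at 1 FPKM or more. Sox2 (chr3:34649995-34652461), the DNA-binding partner of Oct4, was at 168.30 and 169.82, and Nanog (chr6:122707489-122714633), a homeodomain factor, at 144.49 and 146.36. The core trio therefore did not share a level, since Pou5f1 was 3.67-fold above Sox2, the next highest of the 10.

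The supporting factors lay below the trio, with 1 exception. Esrrb (chr12:86361117-86521628), an orphan nuclear receptor, was at 144.26 and 146.28 FPKM, a range that overlapped that of Nanog. Klf5 (chr14:99298691-99313412), a zinc finger factor, was at 54.94 and 56.29, and Nr0b1 (chrX:86191775-86195947), a nuclear receptor without a usual DNA-binding domain, at 55.08 and 55.28. These also overlapped, and they were the only other adjacent pair, of 9 in the order of levels, that did. Klf4 (chr4:55527137-55532475), a relative of Klf5, was at 45.99 and 45.62.

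The lowest levels belonged to Tfcp2l1, Zfp42 and Tbx3. Tfcp2l1 (chr1:118627923-118685168), a factor of the Grainyhead-like family and a LIF target, was at 37.83 and 37.75 FPKM. Zfp42 (chr8:43295067-43307009), a zinc finger gene related to Yy1, was at 27.29 and 28.66. Tbx3 (chr5:119670534-119684724), a T-box factor, was at 17.51 and 18.23. Its level rests on the choice of row: Tbx3 was the only one of the 10 with 2 rows, which held nearly the same value in ES cells, 17.51 and 17.41 in the first library and 18.23 in both rows of the second, and their sum is 35.7. Summed, Tbx3 stood above Zfp42. Because the ES libraries are near-identical, these spreads may cover technical error only.

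**Figure D1:**
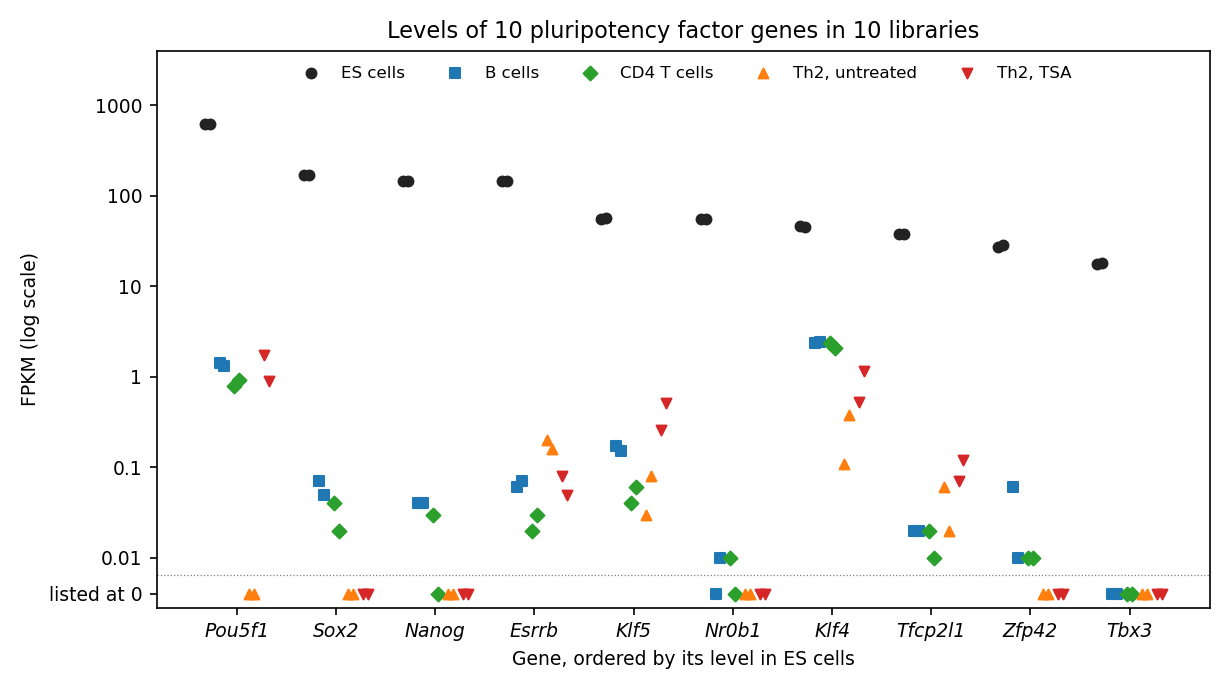
FPKM on a log scale of the 10 factor genes in each of the 10 libraries, with genes in the order of their ES level, colours and symbols for the 5 groups, and values listed at 0 on the lowest line. All ES points lie between 17.5 and 620.31 FPKM, and no lymphocyte point lies above 2.40.

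Among the 8 lymphocyte libraries, the 10 genes gave 80 values, of which 29 were listed at 0, 59 were below 0.1 FPKM and 8 reached 1. The files hold no read counts, so the depth behind a listed 0 is unknown, and such a gene was not detected rather than shown to be absent. The 8 values at 1 FPKM or more belonged to Klf4, with 5, and Pou5f1, with 3. In bulk RNA a few cells with much of a transcript and many cells with little of it cannot be told apart.

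B cells were set beside ES cells first. Sox2 was at 0.07 and 0.05 FPKM in the B libraries, Nanog at 0.04 in both, Esrrb at 0.06 and 0.07, Zfp42 at 0.06 and 0.01 and Tfcp2l1 at 0.02 in both. Nr0b1 was listed at 0 and 0.01, and Tbx3 at 0 in both. Pou5f1 was at 1.41 and 1.32, or 0.22% of its ES level, Klf5 at 0.17 and 0.15, and Klf4 at 2.37 and 2.40, or 5.21% of its ES level. Each gene was lower in B cells, by a log2 difference of FPKM + 1 of -3.79 for Klf4 to -8.04 for Pou5f1, with a median of -5.71 against -0.30 over all genes. All 10 met the size rule for a lower level, a log2 difference of 2 or more together with 5 FPKM or more in ES cells, which 13.4% of the 12907 genes considered met, while 9.45% met the mirrored rule for a higher level.

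In CD4 T cells no member had a mean above its B cell mean, a difference that was not tested. Sox2 was at 0.04 and 0.02 FPKM, Nanog at 0.03 and 0, Esrrb at 0.02 and 0.03, Zfp42 at 0.01 in both and Tfcp2l1 at 0.02 and 0.01. Nr0b1 was at 0.01 and 0, and Tbx3 was listed at 0. Pou5f1 was at 0.79 and 0.92, or 0.14% of its ES level, Klf5 at 0.04 and 0.06, and Klf4 at 2.34 and 2.09. All 10 again met the size rule for a lower level (11.9% of all genes, with 10.8% higher), with a median difference of -5.78 against -0.16 over all genes. With 1 sample on each side, the B and CD4 T comparisons with ES cells have no replicate test. All 10 genes reached the 5 FPKM of the size rule in ES cells only, so the counts describe the set and do not support its choice.

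Klf4 was the member with the highest floor in lymphocytes. Its lowest ES value was 19.0-fold above its highest lymphocyte value, whereas the same ratio was 107.7 for Klf5, 356 for Pou5f1 and 3612 for Nanog. Both B values of Klf4, 2.37 and 2.40 FPKM, lay above both CD4 T values, 2.34 and 2.09, by a margin as small as 0.03. Klf4 is also known as a factor of monocytes and of resting lymphocytes. Myeloid markers were present in these libraries: 11 of 12 fixed markers were measured, and they summed to 149.5 and 152.1 FPKM in B cells, 513.7 and 510.3 in CD4 T cells and 9.35 and 9.27 in untreated Th2 cultures, where C1qa, C1qb, C1qc and Vcam1 were at 0. These sums were higher in the CD4 T than in the B libraries. The part of myeloid cells in the Klf4 level was not tested.

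Untreated Th2 cultures were compared with ES cells and with CD4 T cells by limma, over 12367 genes, with an adjusted p below 0.05 as a call. Nanog, Sox2, Zfp42, Tbx3 and Nr0b1 were listed at 0 in all 4 Th2 files and were left out of these tests, because a 0 throughout these files can be a failed match of names. Of 300 genes at 5 FPKM or more in ES cells and at most 0.07 in every B and CD4 T library, 31.7% were likewise at 0 in all 4 files. The Th2 files also repeat 1 value per symbol while the ES, B and CD4 T files give a value per transcript, so levels set across them are less certain.

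All 5 tested members fell from ES cells to untreated Th2 cultures (lower calls among all genes, 43.1%, and calls in either direction, 62.1%, or 67.9% at an unadjusted p below 0.05), and their median log2 difference was -5.75 against -0.41 over all genes. Pou5f1 was listed at 0 in both Th2 libraries, against 620.1 FPKM. Klf4 was at 0.11 and 0.38, Klf5 at 0.03 and 0.08, Esrrb at 0.20 and 0.16 and Tfcp2l1 at 0.06 and 0.02. All 4 lay far below their lowest ES value. The log2 differences ran from -5.22 (SE 0.046, limma adjusted p = 4.32e-05) for Tfcp2l1 to -6.95 (SE 0.043, limma adjusted p = 2.88e-05) for Esrrb, apart from Pou5f1, whose difference against 0 depends on the pseudocount. The single ES sample is assumed here to vary like the Th2 groups. Klf5, Esrrb and Tfcp2l1 reached 1 FPKM in ES cells only and entered the fit through their ES values. A lower level outside ES cells was thereby given in advance for these genes, and their calls do not support the choice of the set. Under quantile normalization the median of all genes moved to -0.01 and calls over all genes were 3807 higher and 3961 lower, where they had been 2355 and 5329, and after median-ratio scaling they were 3312 and 3747.

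Against CD4 T cells 1 member fell and 1 rose, 2 of 5 tested, while 54.9% of all genes were called. At an unadjusted p below 0.05 there were 3 members, among 62.3% of all genes. Klf4 fell from 2.21 FPKM to 0.245 ± 0.191 (SD, n = 2), a log2 difference of -1.38 (SE 0.29, limma adjusted p = 0.0338), while 38.1% of all genes were called lower. This call was lost with a pseudocount of 0.1, without a filter, after quantile normalization and after median-ratio scaling (limma adjusted p = 0.0607, 0.0526, 0.0819 and 0.0517), and without the first or the second untreated Th2 library (limma adjusted p = 0.119 and 0.0907). Across all the alternatives tried, its adjusted p ran from 0.000137 to 0.119. Myeloid markers went the same way, as given above. Esrrb was called higher, at 0.18 ± 0.03 against 0.025 FPKM (log2 difference 0.20, SE 0.043, limma adjusted p = 0.0343), while 16.9% of all genes were. Both values are under 0.21 FPKM, and the call was lost without any 1 of the 4 Th2 libraries (limma adjusted p = 0.0694 to 0.149).

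The remaining members did not pass in that comparison. Pou5f1 was at 0.79 and 0.92 FPKM in CD4 T cells and listed at 0 in both Th2 libraries, with no overlap (limma adjusted p = 0.0715). Without the first or the second TSA-treated library, which changes only the estimate of the spread, that p was 0.0269 and 0.0288. Klf5, at 0.05 and 0.055 ± 0.035, and Tfcp2l1, at 0.015 and 0.04 ± 0.03, had limma adjusted p of 0.976 and 0.566.

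**Figure D2:**
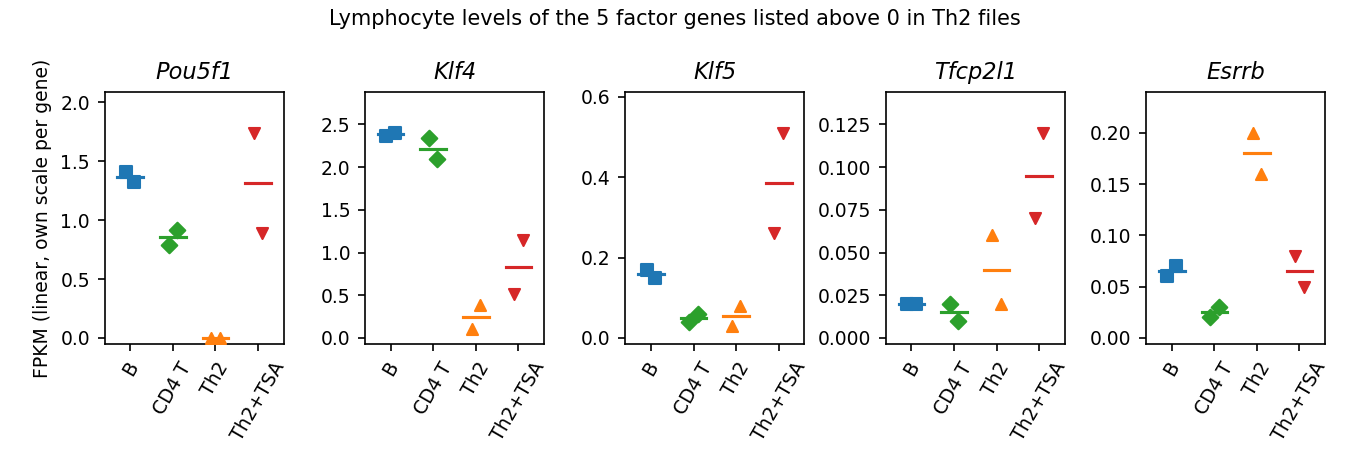
FPKM of Pou5f1, Klf4, Klf5, Tfcp2l1 and Esrrb in the B, CD4 T, untreated Th2 and TSA-treated Th2 libraries, on a linear axis of its own for each gene, with a point per library and a bar at the group mean. Pou5f1 was listed at 0 in both untreated Th2 libraries. In the treated ones it was at 1.74 and 0.89, above and below its B cell values of 1.41 and 1.32.

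In TSA-treated Th2 cultures a trace of some members was seen, but by limma none of the 5 members above 0 in any Th2 library was called against untreated cultures, while 13.4% of 12907 genes were. At an unadjusted p below 0.05 there were 3, Pou5f1, Klf5 and Esrrb, among 36.9% of all genes. Klf5, Esrrb and Tfcp2l1 reached 1 FPKM in ES cells only and entered the fit through their ES values. Nanog, Sox2, Zfp42, Tbx3 and Nr0b1, which entered in the same way, were listed at 0 in both treated and both untreated libraries and could not be called. Of the factors that define the core, only Pou5f1 was therefore seen above 0 in the treated cultures.

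Pou5f1 was at 1.74 and 0.89 FPKM in the treated libraries and listed at 0 in both untreated ones. The treated mean, 1.315 ± 0.601 FPKM (SD, n = 2), was 0.21% of the ES level. The log2 difference was 1.19 (SE 0.22, limma adjusted p = 0.0616), higher than that of 95.7% of all genes tested. The call turned with the setting: the limma adjusted p was 0.0373 with a pseudocount of 0.1, 0.0477 among genes at 5 FPKM or more, 0.0496 after quantile normalization and 0.000628 with 10 separate libraries, and across all alternatives it reached 0.251. Among 808 tested genes listed at 0 in both untreated libraries, 18, or 2.23%, were at 0.5 FPKM or more in both treated ones, and 155, or 19.2%, were above 0 in both, with Pou5f1 among each. That limit of 0.5 FPKM was set after the values were seen.

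The treated Pou5f1 value of 1.74 FPKM lay above all B and CD4 T values of that gene, and the value of 0.89 lay within their range. The treated level was 127% and 65.2% of the mean B cell level of Pou5f1 in the 2 treated libraries. B cell markers also stood higher in the treated cultures, where the 5 fixed markers summed to 13.9 and 38.2 FPKM against 4.33 and 6.29 untreated. The treated sums are 0.353% and 0.973% of that in B cells. The part of B cells in the treated Pou5f1 level was not tested. The neighbouring gene Tcf19 (chr17:35512730-35516837), 1952 bases beyond the end of Pou5f1 and on the opposite strand, was at 101.0 and 128.4 FPKM in treated and 56.1 and 63.8 in untreated cultures (log2 difference 0.92, limma adjusted p = 0.0586). In ES cells Tcf19 was at 4.30 and 3.61. The RefSeq table also lists pseudogenes of Pou5f1 elsewhere in the genome, and the same holds for Nanog and Zfp42, so low values of these genes are uncertain.

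The Klf genes stood higher in both treated libraries than in both untreated ones, at low levels. Klf4 was at 0.52 and 1.15 FPKM against 0.11 and 0.38 (log2 difference 0.55, SE 0.24, limma adjusted p = 0.212). Klf5 was at 0.26 and 0.51 against 0.03 and 0.08 (log2 difference 0.39, SE 0.11, limma adjusted p = 0.112). With 10 separate libraries, which takes near-identical libraries as replicates, both passed (limma adjusted p = 0.0274 and 0.00568). The treated Klf4 values remained below those of B and CD4 T cells, whereas the treated Klf5 values lay above all other lymphocyte values of that gene. Of the 11 myeloid markers 1 rose and 1 fell by limma, against 9.26% and 4.14% of all genes. Itgam, an integrin gene of myeloid cells, rose from 0.09 to 2.05 FPKM. Emr1, which encodes the macrophage protein F4/80, fell from 6.04 to 0.45 (limma adjusted p = 0.0251 for each). C1qb was listed at 0 in every Th2 library and could not be called. The sums of the list, 4.94 and 5.33 in treated and 9.35 and 9.27 in untreated cultures, turn on Emr1. The part of myeloid cells in the treated Klf4 level was not tested.

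Tfcp2l1 was at 0.07 and 0.12 FPKM treated and 0.06 and 0.02 untreated, and its difference of 0.07 (limma adjusted p = 0.260) turned to -0.03 after quantile normalization. Esrrb went the other way, at 0.08 and 0.05 treated and 0.20 and 0.16 untreated (log2 difference -0.15, SE 0.035, limma adjusted p = 0.0869), and it was called lower after quantile normalization and with 10 separate libraries (limma adjusted p = 0.0484 and 0.0207). In all, 4 members had both treated values above both untreated ones and 1 had both below, and the other 5 were at 0 in all 4 libraries. Over all genes the shares were 36.7% and 27.1%, which the members' counts cannot be read against, since those 5 could not differ. After quantile normalization, calls over all genes were 937 higher and 804 lower in place of 1195 and 534, and genes without overlap 3768 higher and 4297 lower in place of 4741 and 3495. The 4 Th2 libraries give 2 residual degrees of freedom, and the labels do not say whether the cultures came from separate animals, so a p-value here reflects only how far these libraries spread, which may be technical variation.

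**Figure D3:**
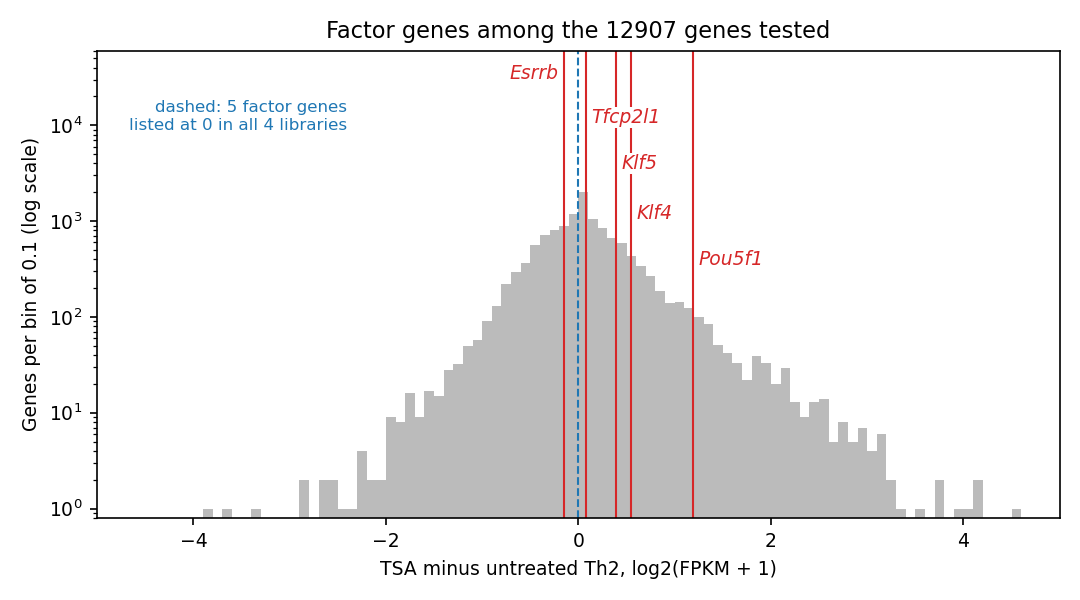
Histogram of the difference between TSA-treated and untreated Th2 cultures over the 12907 genes tested, on the log2(FPKM + 1) scale, with counts per bin on a log axis and a line at each factor gene. Pou5f1 lies at 1.19, above 95.7% of genes, Klf4 and Klf5 at 0.55 and 0.39, and the 5 genes listed at 0 in all 4 libraries at 0.

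The genes whose levels over the 5 groups lay nearest to each member were found by the distance between group means of log2(FPKM + 1), as a description over 5 groups. Several known ES genes were among the 3 nearest: Tdgf1, an embryonic co-receptor, for Pou5f1 (distance 1.49), Sall4, a zinc finger partner of Oct4, for Nanog (0.33), Tdh, the threonine dehydrogenase of ES cells, for Sox2 (0.17), Bmp4 for Zfp42 (0.046) and Fgf4, a target of Oct4 and Sox2, for Nr0b1 (0.11). Matrix and mesenchymal genes were nearest or among the 3 nearest for others. These included Fn1 (363 FPKM in ES cells, distance 1.17) and Thbs1 for Pou5f1, Col1a2 (120.3) for Nanog and Esrrb, Tnc for Sox2, Col5a1 for Tfcp2l1, and Thbs2 and Prrx1 for Tbx3. The ES libraries held such fibroblast transcripts at levels like those of the factors, and a distance over these groups does not separate the 2 kinds of gene. Klf4, with its lymphocyte floor, was nearest to the imprinted gene Mest (44.2 FPKM in ES, 1.83 in CD4 T cells).

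Partner factors, which act with the core in ES cells, showed the same contrast in most members. Of 24 fixed genes 22 were measured and tested, and 19 met the size rule for a lower level in B cells (13.4% of all genes) and 18 in CD4 T cells (11.9%), with none higher. Their median differences were -4.56 and -4.66. Utf1, a chromatin factor of ES cells, was at 326.9 FPKM in ES, 0.18 in B and 0.67 in CD4 T cells, Zfp57, a protector of imprints, at 243.8, 0.13 and 0.17, Dnmt3l, a DNA methylation cofactor, at 261.7, 0.79 and 0.32, and Sall4 at 115.7, 0.045 and 0.035. As a share of the ES level, these named partners differed. Dnmt3l stood at 0.30% in B and 0.12% in CD4 T cells, and Utf1 at 0.057% and 0.20%. Zfp57 stood at 0.053% and 0.072%, and Sall4 at 0.039% and 0.030%. The shares of Pou5f1 were 0.22% and 0.14%. In TSA-treated cultures 1 partner rose and 1 fell by limma, of 22, against 9.26% and 4.14% of all genes. Sall1, Nr5a2 and Foxd3 were listed at 0 in every Th2 library and could not be called. Zfp281 rose from 9.83 to 23.9 FPKM and the cell cycle factor gene Mybl2 fell from 26.2 to 13.4 (limma adjusted p = 0.0328 and 0.034). Neither is restricted to ES cells.

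Genes of the signals upstream of the network were divided. Of 24 genes, 9 met the size rule for a lower level and 2 for a higher one in B cells (13.4% and 9.45% of all genes), and 8 and 6 did in CD4 T cells (11.9% and 10.8%). The ligand gene Fgf4 was at 51.1 FPKM in ES and 0.005 in both lymphocytes, and Bmp4 at 27.4, 0.06 and 0.015. Id1, a target of Bmp signalling, was at 42.9, 0.08 and 0.50, and the Fgf feedback inhibitor Spry4 at 30.4, 0.13 and 0.155. Stat3, which carries the LIF signal, was at 28.7 FPKM in ES, 46.3 in B and 60.05 in CD4 T cells. Between treated and untreated Th2 cultures limma called none of the 24, against 13.4% of all genes. Fgf4, Bmp4 and Fgfr2 were listed at 0 in every Th2 library and could not be called.

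Relatives of the members from the same gene families were spread in both directions. Of 27 genes, 23 were tested, and by the size rule the B cell level was higher for 4 and lower for 4 (9.45% and 13.4% of all genes), and the CD4 T cell level for 5 and 4 (10.8% and 11.9%), with medians of 0.30 and 0.29. The POU gene Pou2f2, which encodes the lymphoid octamer factor Oct2, was at 0.55 FPKM in ES, 101.5 in B and 21.9 in CD4 T cells, opposite to Pou5f1, and Pou6f1 was at 0.96, 14.6 and 16.3. Of the Klf and Sox relatives, Klf9 was at 42.5, 1.29 and 0.89, and Sox13 at 16.1, 0.41 and 0.15. Klf2, which is on the partner list as well, a quiescence factor of T cells that also serves in ES cells, was at 69.3, 175.8 and 167.8, unlike Klf4 and Klf5.

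In TSA-treated Th2 cultures 5 of these 23 relatives rose and none fell by limma (9.26% and 4.14% of all genes). Pou2f2 rose from 1.76 to 6.71 FPKM (limma adjusted p = 0.0282), Tbx21, the Th1 factor of the T-box family, from 7.43 to 22.9 (limma adjusted p = 0.0282), and Sox4 from 0.245 to 2.27 (limma adjusted p = 0.0253). Sox12 rose from 1.39 to 5.65 and Pou6f1 from 0.215 to 1.77 (limma adjusted p = 0.0301 and 0.0439). Pou2f2 is high in B cells, whose markers also stood higher in treated cultures, as given above. By library it was at 6.72 and 6.70 FPKM treated and 1.91 and 1.61 untreated. The fixed B cell markers summed to 13.9 and 38.2 in the same treated libraries. The part of B cells in the treated Pou2f2 level was not tested.

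**Figure D4:**
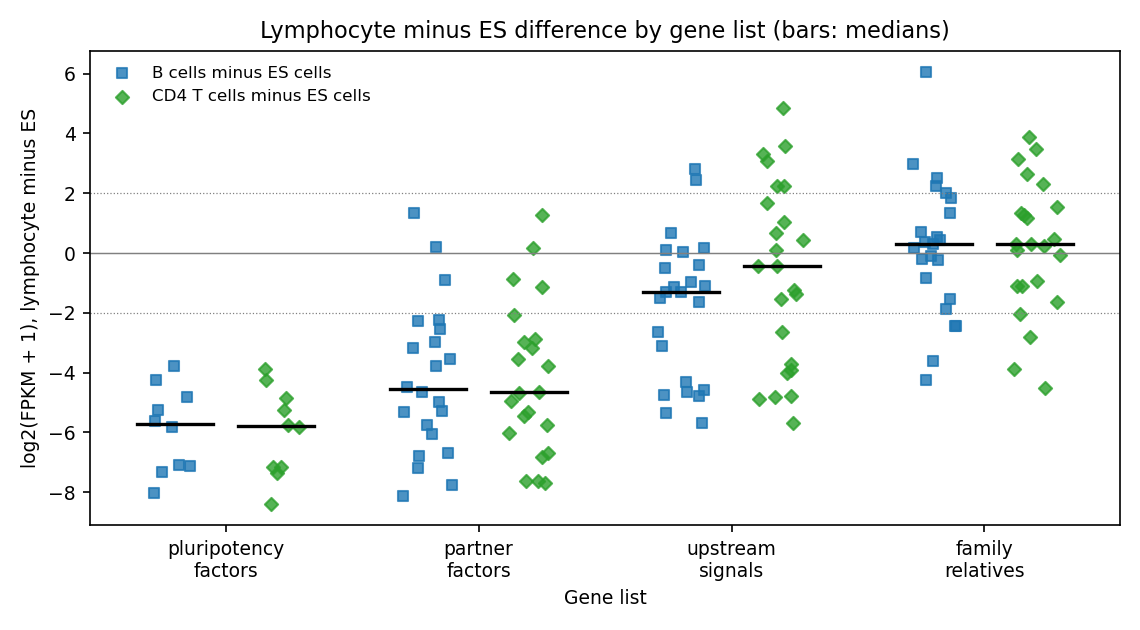
Difference in log2(FPKM + 1) of B cells and of CD4 T cells from ES cells for the 10 pluripotency factors and for the tested genes of the partner, upstream signal and family relative lists, a point per gene, with bars at the medians and dotted lines at a difference of 2. All 10 factors lie between -3.79 and -8.39, whereas the relatives have medians of 0.30 and 0.29.

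Genes of cells that leave pluripotency were also present in the ES libraries, all but Nes below Tbx3, the lowest factor, at 17.87 FPKM. Of 13 fixed genes 10 stood at 1 FPKM or more, and the list summed to 57.5 and 57.0 FPKM. The means of the 10 factors summed to 1320, of which 620.1 was Pou5f1. The highest of the list were Nes at 20.4, Otx2 at 10.6 and Pou3f1 at 6.89. Only Cdx2, Foxa2 and Sox17, at 0.83, 0.41 and 0.365, were below 1 FPKM.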

How the data were processed

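RNA-seq levels of 10 mouse libraries were used, with groups and experiment numbers from the titles. The authors deposited 1 FPKM value per row, without read counts, so the depth cannot be known and intervals for counting error could not be made. Deposited FPKM summed to 405438.5 to 521872.1 per library. The submitters' processing notes name the build mm10 and the tools Cufflinks 2.0.2, TopHat 1.3.2 and Bowtie 0.12.8; strand use is not given in the sources used here. The 21035 rows gave 19025 genes by highest row, after rows without a symbol (315) or with a date (30) were named by RefSeq accession.

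Levels as log2(FPKM + 1) of the 12907 genes at 1 FPKM or more in at least 2 libraries were fitted with limma 3.58.1 in R 4.3.3, with a trend, over 7 samples and 2 residual degrees of freedom, two-sided, with Benjamini-Hochberg adjustment. The fit was tested on simulated data, with changes placed only in genes whose mean log2(FPKM + 1) in the Th2 cultures was above 2. No member reached that level there, so the simulation does not cover the members. Fold changes on this scale understate those of low genes. Members and lists were chosen with earlier results of these data known. Named genes are the 10 members, up to 4 per list by size of the difference between ES and lymphocytes, the 3 nearest genes (a selection is named) and marker genes. Genes named beyond this rule (Stat3, Klf2, Tcf19, and relatives and partners called under TSA) were chosen after their values were seen. The protein comparison of Klf4 and Klf5 was not made here. A marker gene used to check labels is not reported here.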

Additional observations from a re-analysis of the deposited data

How the results depend on the processing

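The count of members lower in B or CD4 T than in ES cells was 10 under every alternative run, and all 5 tested members were called lower in Th2 than in ES cells in every fit; with quantile normalization, which gives genes at 0 a value above 0, 10 were tested and 10 called. Between TSA-treated and untreated cultures the count of members called, 0, became 1 with a pseudocount of 0.1, 1 with a filter of 5 FPKM, 2 after quantile normalization and 4 with 10 separate libraries, which treat near-identical libraries as replicates; leaving out 1 library gave 0 throughout, from fits that called 0 of all genes without untreated Th2 library 1 or 2, 273 without treated library 1 and 10 without treated library 2, where 1729 were called with all libraries. For Th2 against CD4 T cells the count of 2 became 1 without a filter, 1 after quantile normalization and 1 after median-ratio scaling, and 3 with 10 separate libraries, and leaving out 1 library gave 0 to 2. The 5 members without overlap between treated and untreated cultures became 3 after quantile normalization. Tfcp2l1 turned from 0.07 to -0.0255 there (TSA against untreated), and Klf5 in Th2 against CD4 T cells from 0.01 to -0.0072 without CD4 T library 1 and -0.0277 without Th2 library 2, the values without 1 library running from -0.0277 to 0.0406; for these the cause was not tested. With the experiment number as a replicate block, on 1 residual degree of freedom, members called were 0, 2 and 5 in TSA against untreated, Th2 against CD4 T and Th2 against ES cells, as without it; the experiment differences of both Th2 groups correlated at 0.58 over genes, and with 2 pairs this does not show pairing. The depth is unknown, so a member listed at 0 was not detected and is not shown to be absent.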
